A study of Mus musculus with 227 samples.

Results

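The 72 single mouse bone cells labelled THY+ and the 92 labelled 6C3+, among 4 sorted populations of the series, were divided by how many genes each cell showed. Detection meant FPKM (fragments assigned to a transcript, divided by its length and by the cell's total) of at least 1, and the groups were chosen by the number of detected genes: a cell with fewer than 1000 was called a low-gene cell, any other a high-gene cell. The rule gave 29 low-gene and 43 high-gene THY+ cells, and 58 low-gene and 34 high-gene 6C3+ cells, so 87 cells were low-gene and 77 were high-gene cells. The mice were BL6 and 3 days old, and cells of their long bones were sorted live, caught singly on a Fluidigm C1 chip and amplified as full-length cDNA with ERCC spike-ins, synthetic RNAs added to the lysis mix. The THY+ gate was CD45-, Ter119-, Tie2-, AlphaV+, Thy+, 6C3- and CD105+; the 6C3+ gate was CD45-, Ter119-, AlphaV+, Thy-, 6C3+ and CD105+, with no Tie2 term. The rest of the series comprised 26 CSP cells (Thy-, 6C3-, CD105+), of which 15 were low-gene and 11 high-gene cells, and 37 mSSC cells (Thy-, 6C3-, CD105-, CD200+), all of them high-gene cells. No label names an animal or culture, so each population is 1 sample, no p-value was computed, and intervals on shares of cells (exact Clopper-Pearson, 95%) cover counting error between cells only.

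As background, a cell's RNA holds a nuclear fraction and a larger cytoplasmic one. Long noncoding RNAs such as Malat1 and Neat1, which sit in nuclear speckles and paraspeckles, stay in the nucleus, whereas messenger RNAs for ribosomal proteins, mitochondrial enzymes and secreted proteins are mostly translated in the cytoplasm or at the endoplasmic reticulum. Small nucleolar RNAs (snoRNAs) guide chemical modification of ribosomal RNA, are cut out of the introns of host genes and carry no poly(A) tail of their own. In skeletal progenitors the cytoplasmic pool is known to be rich in collagen and other matrix messages.

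3 RNAs on which the results turn are shown here because they differ in the A bases encoded near their ends. All are on the mm10 build and as annotated in GENCODE vM21. Malat1 has a genome-encoded run of A bases just upstream of the point where its end is cut, in capitals here together with the GCAAAA that follows, at chr19:5795982-5796067 on the minus strand. Snora81 is given whole, at chr16:23110756-23110933 on the plus strand, with the trinucleotide that lies 3 bases before its end in capitals, the place of the ACA box in this class of snoRNA. 2900060B14Rik is an annotated antisense transcript whose last 60 bases, at chr1:118458652-118458711 on the minus strand, finish in an encoded run of A bases, in capitals.

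Malat1: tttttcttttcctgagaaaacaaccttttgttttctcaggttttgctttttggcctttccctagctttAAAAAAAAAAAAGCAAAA

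Snora81: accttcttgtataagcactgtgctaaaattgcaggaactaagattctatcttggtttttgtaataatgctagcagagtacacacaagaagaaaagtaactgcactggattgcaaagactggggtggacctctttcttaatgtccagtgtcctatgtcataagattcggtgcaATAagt

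2900060B14Rik: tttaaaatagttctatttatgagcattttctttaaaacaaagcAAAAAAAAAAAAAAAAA

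The encoded run of A bases is 12 long in Malat1, 17 long in 2900060B14Rik and at most 4 long in Snora81. Whether these runs bear on the values below was not tested.

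The number of detected genes chose the groups and is given as a description. Low-gene THY+ cells showed 7 to 978 genes with a mean of 488.6, and high-gene THY+ cells showed 1202 to 5786 with a mean of 2962.8. Low-gene 6C3+ cells showed 4 to 787 genes with a mean of 286.9, and high-gene 6C3+ cells 1031 to 5572 with a mean of 2850.6. The cells nearest to the limit had 978 genes below it and 1202 above it among THY+ cells, and 787 below and 1031 above among 6C3+ cells. No 2 columns of the table were identical and no index pair was used for more than 1 cell.

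What the limit separated was also the endogenous FPKM, both as a total and relative to the spike-ins. The endogenous FPKM of a cell, summed over all rows but ERCC, had a median of 30388 in low-gene and 752613 in high-gene THY+ cells, and of 8417 in low-gene and 366748 in high-gene 6C3+ cells. ERCC rows took a median of 97.2% of all FPKM in low-gene THY+ cells and 20.8% in high-gene ones, and 96.3% in low-gene 6C3+ cells and 18.9% in high-gene ones. The endogenous FPKM per ERCC FPKM was 0.0289 in low-gene and 3.80 in high-gene THY+ cells at the median, and 0.0382 in low-gene and 4.31 in high-gene 6C3+ cells. Under the same limit CSP cells held almost no spike-in FPKM, with a median ERCC share of 0.019% in low-gene and 0.000945% in high-gene cells. Their endogenous FPKM still had a median of 30918 in low-gene and 578425 in high-gene cells. The endogenous total was thus lower in low-gene cells of CSP as well, where spike-ins took almost none of the FPKM. The number of fragments behind each cell is not known from FPKM. What part fewer molecules per cell, weaker capture or shallower sequencing had in these values was not tested.

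**Figure D1:**
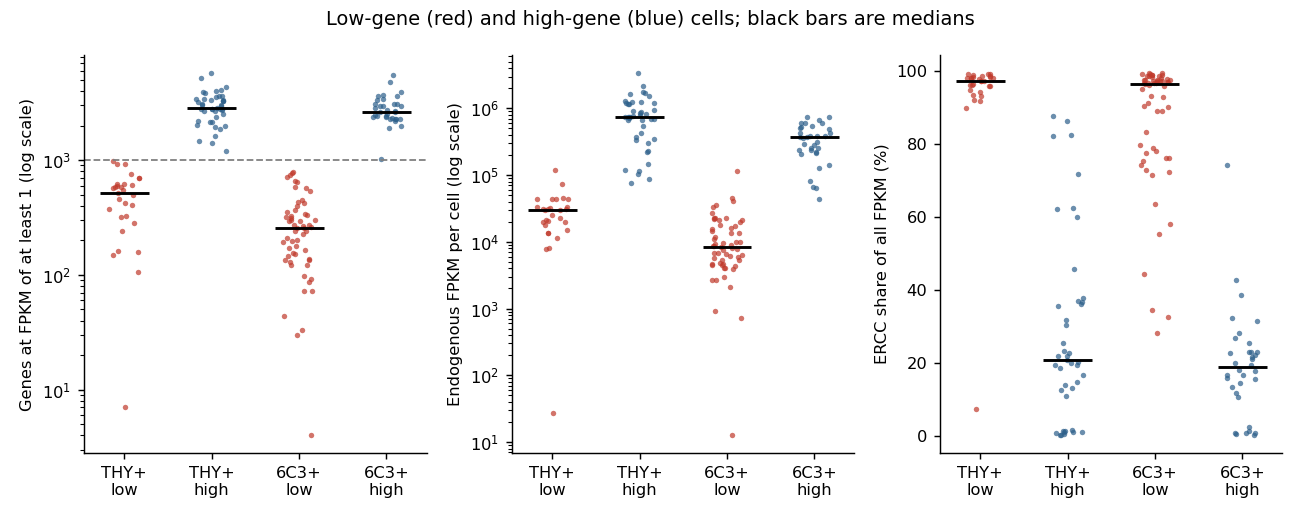
Detected genes (log scale, dashed line at the limit of 1000), endogenous FPKM (log scale) and ERCC share of all FPKM (%) per cell for low-gene (red) and high-gene (blue) cells of each population, with medians as black bars. Medians of the ERCC share are 97.2% and 96.3% in the low-gene cells against 20.8% and 18.9% in the high-gene cells, and some cells of each group lie within the range of the other.

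The FPKM of a low-gene cell was held by few genes. The highest gene of a cell took a median of 11.4% of endogenous FPKM in low-gene and 2.85% in high-gene THY+ cells, and 15.4% in low-gene and 3.41% in high-gene 6C3+ cells. The 10 highest genes together took 51.6% in low-gene against 13.3% in high-gene THY+ cells, and 59.1% in low-gene against 15.3% in high-gene 6C3+ cells. Low-gene cells also shared few of their genes. Of the 6050 genes detected in any low-gene THY+ cell, 52.7% were detected in a single cell, against 14.4% of 13053 genes in high-gene THY+ cells, and the 6C3+ values were 49.7% of 6312 genes in low-gene and 16.7% of 12018 genes in high-gene cells.

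To ask which transcripts were kept and which were lost, 1330 genes common to the high-gene cells were taken, those detected in at least 50% of the high-gene cells of THY+ and of 6C3+. A common gene counted as kept if it was detected in at least 50% of the low-gene cells of both populations, and as lost if in at most 10% of them in both. Their median detection was 10.3% in low-gene and 69.8% in high-gene THY+ cells, and 6.90% in low-gene and 73.5% in high-gene 6C3+ cells. Of the 1330 common genes 21 were kept (1.58%), 787 lay between and the rest were lost (39.2%). The number kept depended on the detection threshold, with 34 genes at any FPKM above 0 and 5 at FPKM of at least 10, namely Malat1, Col1a1, Col1a2, Sparc and Gm20594. With detection set at a share of at least 0.001% of a cell's endogenous FPKM, a threshold that does not move with spike-in level, 961 genes were common, 30 were kept and 280 lost. The 30 included all 21 kept genes named here, and all 280 were among the lost genes counted above. Because the detection of each gene is part of the number that made the groups, these counts are descriptions, and a list is read only against the same shares over all common genes. The share of a gene, here and below, is its share of endogenous FPKM. Such shares sum to 100% in each cell, so a larger share of some transcripts lowers that of others. Detection, unless stated otherwise, is at FPKM of at least 1 as deposited, a threshold that does move with spike-in level and with the endogenous FPKM total.

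**Figure D2:**
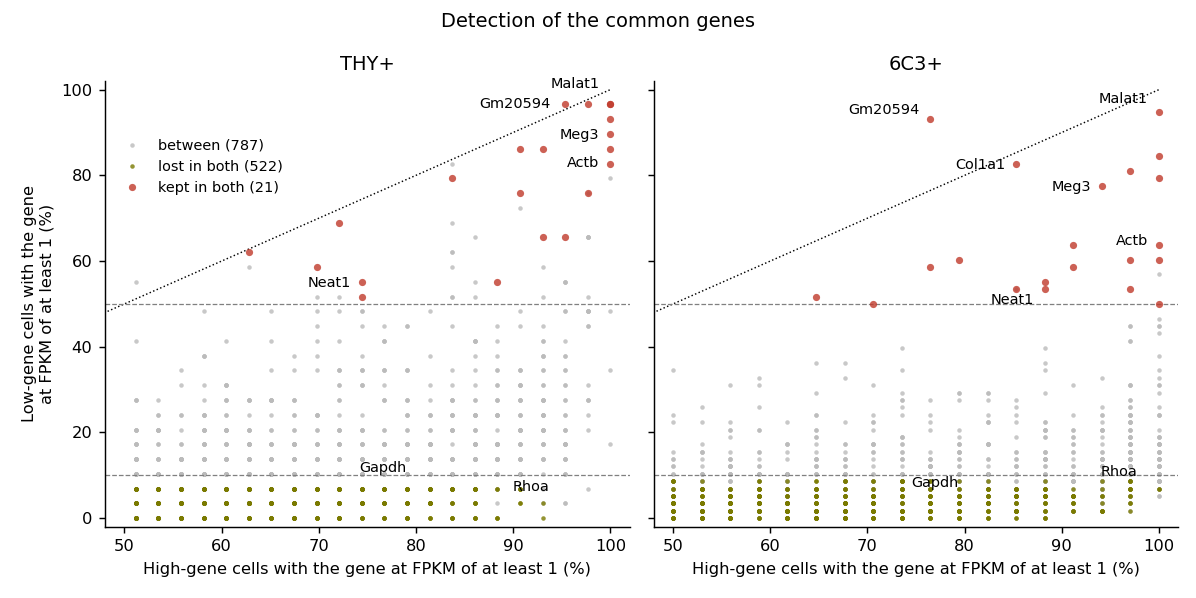
Share of low-gene cells (vertical axis, %) against share of high-gene cells (horizontal axis, %) in which each of the 1330 common genes was detected, in THY+ (left) and 6C3+ cells (right); dashed lines mark 50% and 10%, and the dotted line marks equal detection. The 21 kept genes (red) stand in a thin layer above 50%, and Gm20594 lies above the line of equal detection in both panels.

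Malat1, Meg3 and Neat1 were the kept members of the list of nuclear long noncoding RNAs. Of the 18 measured, 6 were common genes, of which 3 were kept, 1 was lost and 2 lay between, against 1.58% kept and 39.2% lost over all common genes. Their summed share had a median of 4.0% in low-gene and 0.632% in high-gene THY+ cells, and of 3.68% in low-gene and 0.463% in high-gene 6C3+ cells.

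Malat1 (chr19:5795690-5802672, minus strand), the abundant speckle RNA, was detected in 28 of 29 low-gene THY+ cells (96.6%, interval 82.2% to 99.9%) and in all 43 high-gene ones. Its share ran from 0% through a median of 2.72% to 11.3% in low-gene THY+ cells, against 0.0145%, 0.495% and 5.11% in high-gene THY+ cells. In 6C3+ cells it was detected in 55 of 58 low-gene cells (94.8%, interval 85.6% to 98.9%) and in all 34 high-gene cells. Its share ran from 0.00523% through 3.26% to 18.7% in low-gene 6C3+ cells, against 0.0482%, 0.354% and 1.42% in high-gene 6C3+ cells. The ranges overlapped in both populations, and the low-gene cells reached both lower and higher than the high-gene ones. The mean share was 3.31% in low-gene and 0.867% in high-gene THY+ cells, a ratio of 3.82, and 3.92% in low-gene and 0.495% in high-gene 6C3+ cells, a ratio of 7.92. As FPKM as deposited, without division by the endogenous total, the direction was the opposite, with ratios of 0.238 in THY+ and 0.294 in 6C3+ cells. Under the other alternatives the share ratio ran from 2.69 to 6.61 in THY+ and from 5.94 to 10.3 in 6C3+ cells.

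Meg3 (chr12:109541001-109571726, plus strand), the maternally expressed noncoding RNA of the Dlk1 imprinted domain, was detected in 26 of 29 low-gene and 43 of 43 high-gene THY+ cells, and in 45 of 58 low-gene and 32 of 34 high-gene 6C3+ cells. Its share had a median of 0.322% (0% to 6.06%) in low-gene THY+ cells and of 0.0418% (0.000576% to 2.64%) in high-gene ones. In 6C3+ cells the median was 0.152% (0% to 7.10%) in low-gene cells and 0.0265% (0% to 0.730%) in high-gene cells. The ranges overlapped, and the ratios of mean shares were 3.38 in THY+ and 8.89 in 6C3+ cells. Without index rows S502 and S503 the THY+ ratio was 1.99, just under the ratio of 2 used for a call, and with a limit of 750 genes the 6C3+ ratio was 2.38. Dlk1, the paternally expressed gene of the same domain, was not kept, with detection in 41.4% of low-gene and 76.7% of high-gene THY+ cells and in 17.2% of low-gene and 82.4% of high-gene 6C3+ cells, yet its mean share ratios were 8.47 and 5.70.

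Neat1 (chr19:5824708-5845478, minus strand), the paraspeckle scaffold, was kept by detection alone. It was detected in 16 of 29 low-gene and 32 of 43 high-gene THY+ cells, and in 31 of 58 low-gene and 30 of 34 high-gene 6C3+ cells. Its median share was 0.00643% (0% to 0.326%) in low-gene and 0.00414% (0% to 0.468%) in high-gene THY+ cells, and 0.0149% (0% to 0.808%) in low-gene and 0.00563% (0% to 0.748%) in high-gene 6C3+ cells. The ranges overlapped nearly throughout, and the ratios of mean shares were 1.83 in THY+ and 1.96 in 6C3+ cells, below the call of 2. This call depended on the setting: both ratios passed 2 with a limit of 1500 genes (4.42 in THY+ and 5.90 in 6C3+ cells), and in THY+ cells the ratio was 1.12 without rows S502 and S503. Tug1, another nuclear noncoding RNA, was lost, with detection in 1 of 29 low-gene and 29 of 43 high-gene THY+ cells and in 0 of 58 low-gene and 25 of 34 high-gene 6C3+ cells. With detection at any FPKM above 0, or by share of endogenous FPKM, 0 members of the list counted as lost. Detection in low-gene cells thus ranged over the whole scale within this list.

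**Figure D3:**
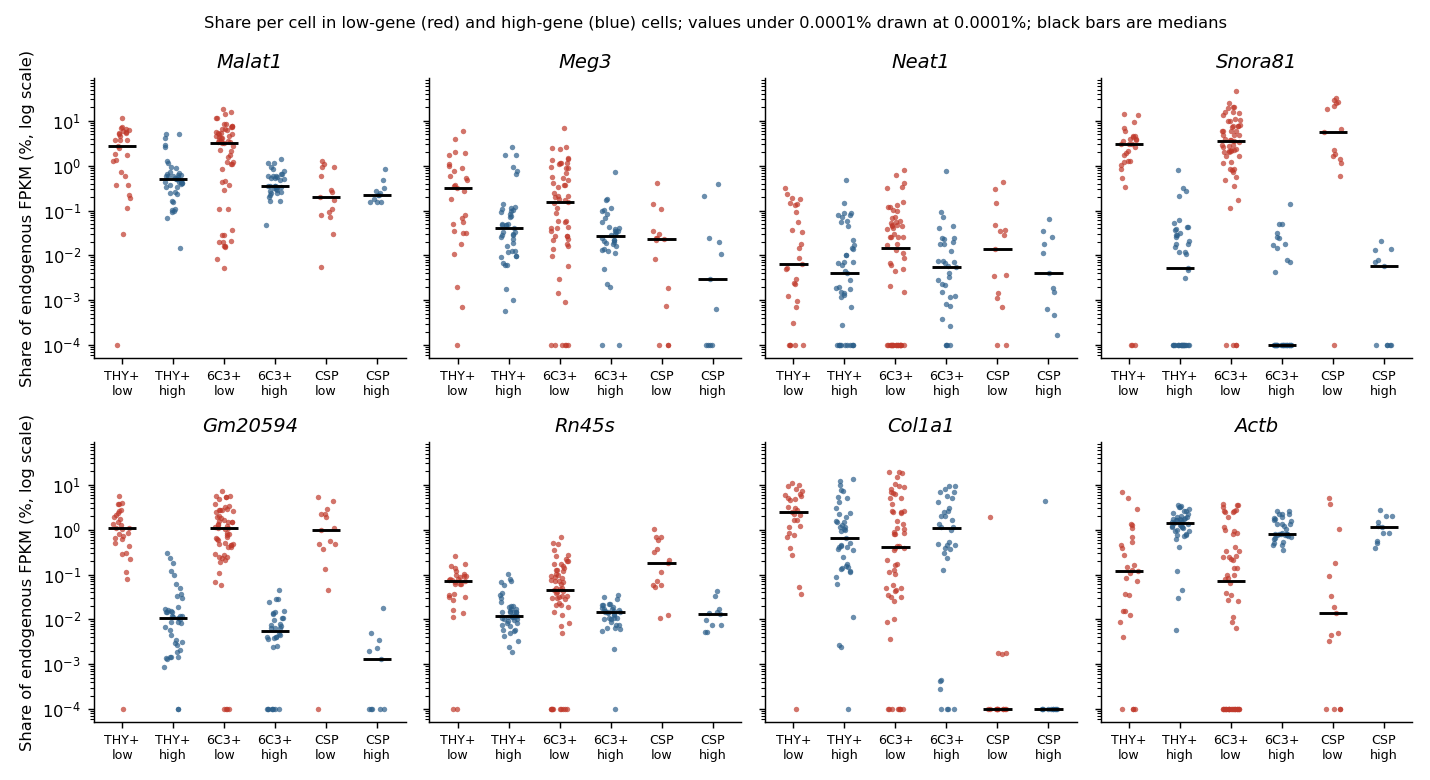
Share of endogenous FPKM (%, log scale) of 8 genes in each cell, low-gene (red) left of high-gene (blue) in THY+, 6C3+ and CSP cells; values under 0.0001% are drawn at 0.0001% and black bars are medians. Snora81 and Gm20594 medians are higher in the low-gene cells of all 3 populations, whereas the Malat1 median is higher in low-gene THY+ and 6C3+ cells (2.72% and 3.26% against 0.495% and 0.354%) and about equal in CSP cells (0.201% against 0.224%).

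Matrix messages made up the next group of kept genes. Of 18 common fibrillar and bone matrix genes 4 were kept, 0 were lost and 14 lay between, against 39.2% lost over all common genes. The kept ones were Col1a1 and Col1a2, the chains of type I collagen, Col3a1, the chain of type III collagen, and Sparc, a collagen-binding bone matrix protein. Col2a1 and Col11a1, cartilage collagens from the chondrocyte list, were kept as well, and the other 2 common genes of that list, Acan and Sox9, lay between. The 18 matrix genes had a median longest transcript of 5706 bases and a median mean share of 0.136% in high-gene cells. Among all common genes with a mean share from 0.1% to under 0.5%, 8.55% were lost. At 0.1% or more and from 4000 bases on, 46.7% were kept and 0 lost, Col1a1, Col1a2 and Col3a1 included. A difference of the matrix list from other genes of its length and level was not tested.

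Col1a1 was detected in 28 of 29 low-gene and 42 of 43 high-gene THY+ cells, and in 48 of 58 low-gene and 29 of 34 high-gene 6C3+ cells. Its share had a median of 2.54% (0% to 11.2%) in low-gene and 0.656% (0% to 13.8%) in high-gene THY+ cells. In 6C3+ cells the order was the other way, with 0.414% (0% to 19.1%) in low-gene and 1.06% (0% to 9.54%) in high-gene cells. The ranges overlapped in both populations, and the ratios of means, 1.67 and 1.27, passed neither limit. Col1a2 was detected in 96.6% of low-gene and 100% of high-gene THY+ cells, in 84.5% of low-gene and 100% of high-gene 6C3+ cells, with ratios of 1.41 and 0.923. The summed share of the 22 matrix genes had a median of 7.02% in low-gene and 4.03% in high-gene THY+ cells, and of 4.47% in low-gene and 6.33% in high-gene 6C3+ cells, so it was higher in low-gene cells in 1 population and lower in the other.

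The rest of the kept genes were of several kinds. Fos and Egr1, immediate early transcription factors, were kept; Fos was detected in 86.2% of low-gene and 90.7% of high-gene THY+ cells and in 55.2% of low-gene and 88.2% of high-gene 6C3+ cells. Of the 16 common immediate early and stress genes 2 were kept, 0 were lost and 14 lay between, against 1.58% kept and 39.2% lost over all common genes. Actb, cytoplasmic actin, was kept by detection (25 of 29 low-gene and 43 of 43 high-gene THY+ cells, 37 of 58 low-gene and 34 of 34 high-gene 6C3+ cells) although its median share was 0.119% in low-gene and 1.38% in high-gene THY+ cells, and 0.0714% in low-gene and 0.809% in high-gene 6C3+ cells. H19, an imprinted noncoding RNA, Itm2a, a membrane protein of cartilage, Rrbp1, a ribosome receptor of the endoplasmic reticulum, Arglu1, Dnm1 and the splicing regulators Srsf11 and Ddx17 were also kept.

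Rn45s, the precursor of ribosomal RNA, was detected in 27 of 29 low-gene and 43 of 43 high-gene THY+ cells, and in 47 of 58 low-gene and 33 of 34 high-gene 6C3+ cells. Its median share was 0.0730% in low-gene and 0.0120% in high-gene THY+ cells, and 0.0463% in low-gene and 0.0142% in high-gene 6C3+ cells. The ratios of mean shares were 3.68 and 6.88. Gm20594 had the highest ratios of the common genes in both populations, with log2 ratios of 5.53 in THY+ and 7.54 in 6C3+ cells, and is named here after its values were seen. It was detected in 28 of 29 low-gene and 41 of 43 high-gene THY+ cells, and in 54 of 58 low-gene and 26 of 34 high-gene 6C3+ cells. Its share had a median of 1.10% (0% to 5.71%) in low-gene and 0.0106% (0% to 0.309%) in high-gene THY+ cells, and of 1.07% (0% to 7.44%) in low-gene and 0.00553% (0% to 0.0458%) in high-gene 6C3+ cells. Gm20594 is a nuclear gene on chromosome 6 whose RefSeq synonym Mtrnr2l refers to mitochondrial 16S ribosomal RNA. The table has 0 mitochondrial rows, so fragments of the mitochondrial RNA and of this copy cannot be told apart.

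Across the genome, 2 of 24388 genes were detected at least 10 percentage points more often in low-gene than in high-gene cells of both populations (0.0082%). They were Snora81 and 2900060B14Rik. Snora81 lies in an intron of Eif4a2, a translation initiation helicase, in 6 of 6 protein-coding transcripts. It was detected in 26 of 29 low-gene cells (89.7%, interval 72.6% to 97.8%) and 24 of 43 high-gene cells (55.8%, interval 39.9% to 70.9%) of THY+, and in 54 of 58 low-gene cells (93.1%, interval 83.3% to 98.1%) and 12 of 34 high-gene cells (35.3%, interval 19.7% to 53.5%) of 6C3+. Its share had a median of 3.00% (0% to 13.9%) in low-gene and 0.00529% (0% to 0.803%) in high-gene THY+ cells, and of 3.47% (0% to 46%) in low-gene cells and 0% (0% to 0.140%) in high-gene cells of 6C3+. The ranges overlapped at their ends, but 24 of 29 low-gene THY+ cells and 53 of 58 low-gene 6C3+ cells lay above every high-gene cell of their population. Its host gene Eif4a2, named after its values were seen, was detected in 10.3% of low-gene and 79.1% of high-gene THY+ cells, and in 15.5% of low-gene and 79.4% of high-gene 6C3+ cells.

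2900060B14Rik was detected in 82.8% of low-gene and 51.2% of high-gene THY+ cells, and in 81% of low-gene and 26.5% of high-gene 6C3+ cells. Its median share was 0.0690% in low-gene and 0.000128% in high-gene THY+ cells, and 0.129% in low-gene and 0% in high-gene 6C3+ cells. It is annotated antisense, no source used here states that strand was kept in counting, and reads of an overlapping gene cannot be told apart from its own.

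Over all snoRNA genes in the table the summed share had a median of 4.59% in low-gene and 0.128% in high-gene THY+ cells, and of 6.40% in low-gene and 0.0682% in high-gene 6C3+ cells. It reached at least 10% in 9 of 29 low-gene THY+ cells and 18 of 58 low-gene 6C3+ cells, and in 0 high-gene cells of either population. Much of the summed share in low-gene cells was that of Snora81, whose medians are given above. The median number of snoRNA genes detected per cell was 2 in both groups of THY+ and 1 in both groups of 6C3+ cells. Those detected in any cell were 26 in low-gene and 37 in high-gene THY+ cells, and 20 in low-gene and 25 in high-gene 6C3+ cells. The higher sum therefore does not show a rise across the class. FPKM divides by transcript length, so a short RNA receives a large value for few fragments. Long noncoding RNAs as a class had a median of 4.42% in low-gene and 1.44% in high-gene THY+ cells, and of 5.56% in low-gene and 1.39% in high-gene 6C3+ cells. Protein-coding genes took 85.2% in low-gene and 96.2% in high-gene THY+ cells, and 84.2% in low-gene and 96.5% in high-gene 6C3+ cells.

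A larger part of the genes of oxidative phosphorylation was lost than of all common genes. Of 38 common genes of oxidative phosphorylation encoded in the nucleus 29 were lost (76.3%), 0 were kept and 9 lay between, against 39.2% lost over all common genes. Their summed share had a median of 0.305% in low-gene and 3.26% in high-gene THY+ cells, and of 0.122% in low-gene and 2.81% in high-gene 6C3+ cells. Atp5f1 and Atp5g2, subunits of ATP synthase, and Ndufb5 and Ndufc2, subunits of complex I, were listed at 0 in every low-gene cell of both populations, while their detection in high-gene cells ran from 55.8% to 83.7%. The 38 common genes were short, with a median longest transcript of 929.5 bases against 2892 bases over all common genes. The median of their mean shares in high-gene cells was 0.068%. Of the 89 common genes under 1000 bases with a mean share from 0.03% to under 0.1%, 75.3% were lost, near the 76.3% of this list. Whether the list differs from other genes of its length and level was not tested.

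Of 17 common proteasome and ubiquitin genes 10 were lost (58.8%) and 0 kept, against 39.2% lost over all common genes. Of 21 common genes of endoplasmic reticulum folding and export 9 were lost (42.9%) and 0 kept, which is near the share over all common genes, and 5 were lost with detection by share of endogenous FPKM. The 9 lost genes of endoplasmic reticulum folding and export included Sec61a1, Sec61b and Sec61g, which form the translocation channel, and the disulfide isomerases Pdia3, Pdia4 and Pdia6. Of 16 common translation factors 4 were lost (25%) and 0 kept, a smaller part than of all common genes.

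Ribosomal protein genes were thinned in most low-gene cells but seldom lost. Of the 79 common ones 12 were lost (15.2%), 0 were kept and 67 lay between, and their median detection was 17.2% in low-gene and 88.4% in high-gene THY+ cells, and 10.3% in low-gene and 97.1% in high-gene 6C3+ cells. Their summed share stayed large, with a median of 7.67% in low-gene and 10.5% in high-gene THY+ cells, and of 5.72% in low-gene and 9.09% in high-gene 6C3+ cells. Among the lost ones, Rps6 was detected in 1 of 29 low-gene and 39 of 43 high-gene THY+ cells and in 4 of 58 low-gene and 33 of 34 high-gene 6C3+ cells. Rpl27 was detected in 0 of 29 low-gene and 37 of 43 high-gene THY+ cells and in 1 of 58 low-gene and 33 of 34 high-gene 6C3+ cells. Ribosomal protein genes have many processed copies, so how fragments were divided between them is uncertain.

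Further lost genes with the largest drops were Slc39a1, a zinc importer, Rhoa, a small GTPase of the actin cytoskeleton, Myl12a, a myosin regulatory light chain, Shfm1, a proteasome subunit, Cnn3, an actin-binding calponin, and Tram1, a membrane protein of the translocon. Slc39a1 was detected in 0 of 29 low-gene and 40 of 43 high-gene THY+ cells, and in 2 of 58 low-gene and 33 of 34 high-gene 6C3+ cells; a count of 0 of 29 allows a share of up to 11.9% of cells. Rhoa was detected in 1 of 29 low-gene and 40 of 43 high-gene THY+ cells, and in 4 of 58 low-gene and 33 of 34 high-gene 6C3+ cells. The ratio of its mean shares was 0.00924 in THY+ and 1.20 in 6C3+ cells, where 54 of 58 low-gene cells were listed at 0 and the highest cell held 1.34%. In the same way Gapdh, detected in 2 of 29 low-gene and 34 of 43 high-gene THY+ cells and in 2 of 58 low-gene and 27 of 34 high-gene 6C3+ cells, was lost, with many pseudogenes that make its counting uncertain. Of the lost genes 34 were detected in 0 low-gene cells of both populations.

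**Figure D4:**
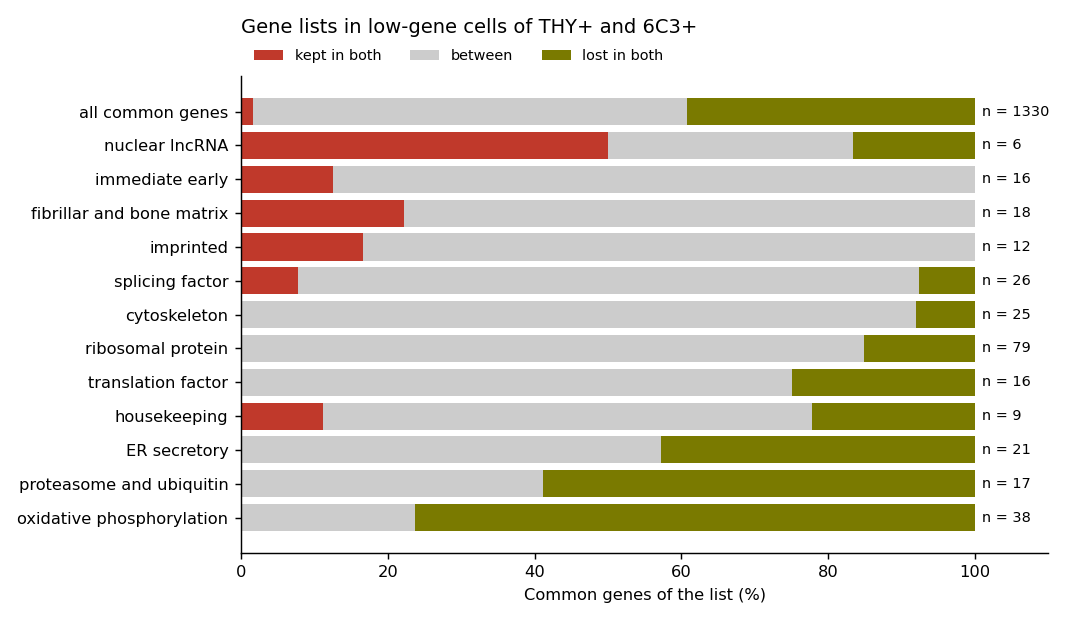
Share of the common genes of each list (%) that were kept in both populations (red), lost in both (olive) or between (grey), with the number of common genes beside each bar. The order of the lists was chosen and not computed. Among the lists drawn, oxidative phosphorylation had the largest part lost (29 of 38) and the nuclear noncoding RNAs the largest part kept (3 of 6). The top bar gives all 1330 common genes.

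Mean shares gave a second view of the same cells and genes. In THY+ cells 190 of 1330 common genes had a ratio of low-gene to high-gene mean share of at least 2 (14.3%), and 801 had a ratio of at most 0.5 (60.2%). In 6C3+ cells 13.2% of them reached 2, and 698 genes had a ratio of at most 0.5 (52.5%). Both populations had the higher share for 43 genes (3.23%) and the lower share for 499 genes (37.5%). The median ratio over the common genes was 0.291 in THY+ and 0.442 in 6C3+ cells. Common genes were chosen by detection in high-gene cells alone, which by itself lowers these ratios, so they are descriptions. The summed share of all common genes had a median of 63.8% in low-gene and 66.2% in high-gene THY+ cells. In 6C3+ cells it was 61.9% in low-gene and 68.1% in high-gene cells. The counts of genes lean on single cells: without the highest cell of each group for each gene, 23 genes had a ratio of at least 2 and 878 a ratio of at most 0.5 in both. Of the 21 kept genes 7 had the higher share in both and 0 the lower share, and of the lost genes 300 had the lower share and 2, Tm9sf2 and Chmp5, the higher share.

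The 43 genes of higher share held a number of splicing factors. Of 26 common splicing factors 7 were among them, against 3.23% of all common genes, namely Srsf11, Srrm2, Ddx17, Luc7l2, Rbm25, Pnisr and Prpf4b; of the 26, 2 were kept, 2 (Srsf6 and Hnrnpc) were lost and 22 lay between. Luc7l2, a factor of the U1 snRNP, was detected in 13 of 29 low-gene and 32 of 43 high-gene THY+ cells, and in 17 of 58 low-gene and 22 of 34 high-gene 6C3+ cells. Its mean share was 0.0492% in low-gene and 0.00404% in high-gene THY+ cells, a ratio of 12.2, and 0.0271% in low-gene and 0.00366% in high-gene 6C3+ cells, a ratio of 7.42. It was thus detected in a smaller part of the low-gene cells and held a larger mean share of their FPKM.

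Jun and Jund, subunits of the AP-1 transcription factor, had ratios of 8.54 and 7.64 in THY+ and 9.0 and 5.81 in 6C3+ cells. Jun was detected in 18 of 29 low-gene and 36 of 43 high-gene THY+ cells, and in 20 of 58 low-gene and 25 of 34 high-gene 6C3+ cells. The heat shock genes Hsp90aa1 and Hsp90ab1 also had the higher share in both, with ratios of 4.99 and 2.35 in THY+ and 3.20 and 2.52 in 6C3+ cells. Of the 5 common heat shock genes 2 had the higher share, 2 had the lower share and 1 was lost. Over all common genes the parts were 3.23%, 37.5% and 39.2%. The summed share of the heat shock list had a median of 0.295% in low-gene and 0.442% in high-gene THY+ cells. In 6C3+ cells it was 0.0779% in low-gene and 0.382% in high-gene cells. Of the 12 common imprinted genes 3 had the higher share (Meg3, Dlk1 and Peg3), 2 were kept (Meg3 and H19) and 0 were lost, against 3.23%, 1.58% and 39.2% over all common genes. The number of immediate early and stress genes detected per cell, of 19, was lower in low-gene cells, with a median of 5 in low-gene and 14 in high-gene THY+ cells and of 4 in low-gene and 12 in high-gene 6C3+ cells. Of the 16 common ones 2 had the higher share and 0 the lower share in both. The summed share of this list had a median of 0.435% in low-gene and 0.731% in high-gene THY+ cells. In 6C3+ cells it was 0.523% in low-gene and 1.09% in high-gene cells. Its kept members had ratios, in THY+ and 6C3+ cells, of 0.641 and 0.381 for Egr1 and 2.18 and 0.723 for Fos.

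Relative to the spike-ins, Malat1, Meg3, Neat1, Rn45s, Col1a1 and Actb were lower in low-gene cells, whereas Snora81 was higher. Per 1000 ERCC FPKM the median of Malat1 was 0.932 in low-gene and 17.1 in high-gene THY+ cells, 18.3-fold lower in low-gene cells, and 0.967 in low-gene and 15.5 in high-gene 6C3+ cells, 16-fold lower. Meg3 was 12.8-fold lower in low-gene THY+ and 22.4-fold lower in low-gene 6C3+ cells, Col1a1 47.2-fold and 91.3-fold lower, and Actb 1051-fold and 1958-fold lower. Snora81 was higher, with 0.723 in low-gene and 0.154 in high-gene THY+ cells, and 1.51 in low-gene 6C3+ cells against a median of 0 in high-gene ones. Gm20594 was 1.20-fold lower in low-gene THY+ cells, with 0.319 in low-gene and 0.382 in high-gene cells, and 1.89-fold higher in low-gene 6C3+ cells, with 0.367 in low-gene and 0.194 in high-gene cells.

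Kept and lost genes differed in transcript length, a property that the detection rule did not use directly. The median longest annotated transcript was 4668.5 bases for kept, 2399 bases for lost and 2892 bases for all common genes, with a value for 20 of 21, 99.8% and 1325 of 1330 genes. The 43 genes of higher share had a median of 4426 bases. Of the common genes with transcripts under 1000 bases 59.5% were lost, of those from 1000 to under 2000 bases 47.1%, from 2000 to under 4000 bases 39%, and from 4000 bases on 27.9%. The same order held within 1 range of share: with a mean share in high-gene cells from 0.03% to under 0.1%, 75.3% of the 89 shortest genes were lost, then 44.6%, 29.3% and 14.6% of the 41 longest. FPKM is already divided by length, so at an equal share a longer transcript is backed by more fragments. Length and number of fragments are therefore not separated by this range. Kept and lost genes also differed in level, which detection at a fixed FPKM uses, so this is a description: 7 of the 15 common genes with a share of at least 0.5% in high-gene cells were kept and 0 were lost, whereas 42.4% of the 832 genes under 0.03% were lost. Of the 21 kept genes 4 were long noncoding RNAs, against 16 of 1330 common genes.

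CSP cells took no part in choosing the kept and lost genes. Of the 21 kept genes 18 were common to high-gene CSP cells, and 13 of these 18 (72.2%) were detected in at least 50% of the 15 low-gene CSP cells, against 2.01% of the 2086 genes common to high-gene CSP cells. The 2086 genes were not matched to the kept genes for level. In high-gene THY+ and 6C3+ cells the median of the mean shares was 0.245% for kept and 0.0204% for all 1330 common genes. The CSP groups were also made by the same limit of 1000 genes. Of the lost genes 466 (89.3%) were detected in at most 10% of low-gene CSP cells, 396 of them among the 448 that were common to high-gene CSP cells (88.4%), against 75.3% of the 2086 genes. Col1a1 was detected in 1 of 15 low-gene and 1 of 11 high-gene CSP cells, and it was not a common gene there.

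Snora81 was detected in 14 of 15 low-gene and 6 of 11 high-gene CSP cells, with median shares of 5.75% in low-gene and 0.00575% in high-gene cells. Gm20594 had a median of 0.990% in low-gene and 0.00132% in high-gene CSP cells, and Rn45s of 0.182% in low-gene and 0.0129% in high-gene cells. For Malat1 the CSP median and mean differed in direction, with a median of 0.201% (0.0056% to 1.31%) in low-gene and 0.224% (0.154% to 0.851%) in high-gene cells, and a mean of 0.412% in low-gene and 0.296% in high-gene cells. Meg3 had a median of 0.0226% in low-gene and 0.00290% in high-gene CSP cells, with mean shares of 0.0554% in low-gene and 0.0612% in high-gene cells. Neat1 was higher in low-gene CSP cells by both measures, with a median of 0.0136% in low-gene and 0.00414% in high-gene cells. Its mean shares were 0.0707% and 0.0147%, and it was detected in 10 of 15 low-gene and 11 of 11 high-gene CSP cells. In mSSC cells, where no cell was low, the median share of Malat1 was 0.259%, of Meg3 0.0503% and of Neat1 0.00821%. Whether the higher Malat1 share in low-gene THY+ and 6C3+ cells differs from that in CSP cells was not tested.

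The share of low-gene cells differed between the i5 index rows given in the cells' names. The names also carry an i7 index and a running number, by which the values were not divided. Low-gene cells made up 8.33% to 75% of the cells of a row in THY+ (7 rows) and 40% to 83.3% in 6C3+ (8 rows). Endogenous FPKM per ERCC FPKM was lower in low-gene than in high-gene cells in 7 of 7 THY+ and 8 of 8 6C3+ rows. The ratio of mean Malat1 share was above 1 in 6 of 7 THY+ rows and in 8 of 8 6C3+ rows, and ran from 0.0830 (row S510, 1 low-gene and 1 high-gene cell) to 8.43 in THY+ and from 1.15 to 14.6 in 6C3+ cells. THY+ rows S502 and S503 held 1 low-gene cell each. Medians were lower in low-gene cells in 6C3+ rows S502 (0.244% against 0.561%) and S503 (0.238% against 0.299%). The same was true of THY+ rows S508 (2.72% against 4.14%) and S510, and all other rows had the higher median in low-gene cells.

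In the Malat1 share of low-gene 6C3+ cells, rows S502 and S503 stood apart. The 16 low-gene 6C3+ cells in them had a median ERCC share of 73.6% and a median Malat1 share of 0.238%, against 0.348% in the 6 high-gene cells of those rows. The 42 low-gene 6C3+ cells of the other rows had a median ERCC share of 97.0% and a median Malat1 share of 4.21%, against 0.425% in 28 high-gene cells. Snora81 did not divide by row, with medians of 3.03% in low-gene cells of rows S502 and S503 and 3.64% in low-gene cells of the other rows. In THY+ row S508 the 3 high-gene cells had an ERCC share of 82.5% at the median and a mean Malat1 share of 3.26%, close to the 3.59% of the 9 low-gene cells of that row. The part of spike-in level in the Malat1 values was not tested. Without rows S502 and S503 the Malat1 ratio of mean shares was 2.69 in THY+ and 10.3 in 6C3+ cells.

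**Figure D5:**
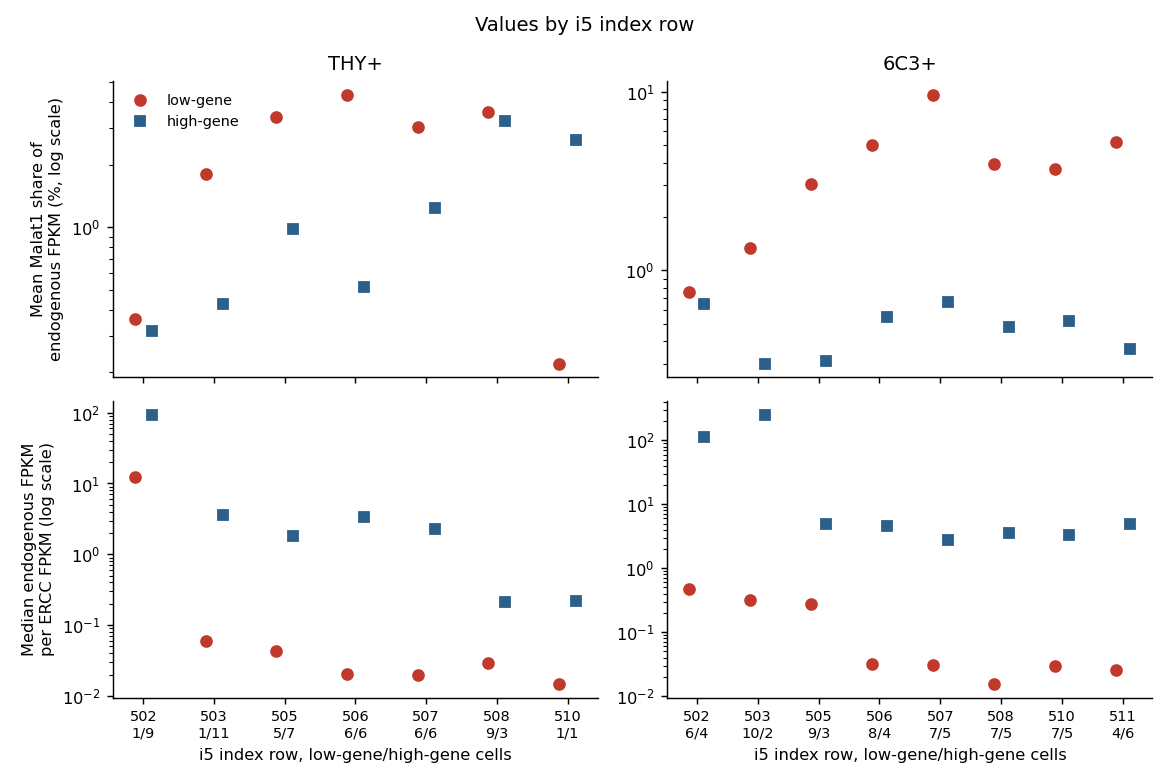
Mean Malat1 share (top, %, log scale) and median endogenous FPKM per ERCC FPKM (bottom, log scale) by i5 index row for low-gene (red circles) and high-gene (blue squares) cells of THY+ (left) and 6C3+ (right), with the number of low-gene and high-gene cells under each row. Low-gene cells have the lower endogenous FPKM per ERCC FPKM in every row shown, and the mean Malat1 share is higher in them in 6 of 7 THY+ and 8 of 8 6C3+ rows.

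Defining markers of endothelial, myeloid and erythroid cells were at 0 in the low-gene cells. None of the 9 endothelial, 12 myeloid or 7 erythroid genes in the table was detected in any low-gene cell of either population. In high-gene cells they were scarce as well: 5 of the 9 endothelial and 11 of the 12 myeloid genes were detected in no high-gene cell of each population, and 5 of the 7 erythroid genes in no THY+ and 7 in no 6C3+ high-gene cell. Markers of the gate were scarce, since of the 7 antigen genes measured, 7 were detected in no low-gene THY+ cell and 5 in no low-gene 6C3+ cell, against 2 in no high-gene cell of each population. Osteoblast genes were rare as well, with 13 and 11 of 15 detected in no low-gene THY+ and 6C3+ cell, against 5 and 4 in no high-gene cell. Transcripts of the gate and of osteoblasts therefore give little check of the sort labels in low-gene cells.

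Whole profiles were compared across the mean shares of the 1330 common genes, which are not independent replicates. For low-gene THY+ cells Spearman's rho was 0.423 with low-gene 6C3+ cells, 0.327 with high-gene THY+ cells and 0.315 with high-gene 6C3+ cells. For low-gene 6C3+ cells it was 0.418 with their own high-gene cells and 0.426 with high-gene THY+ cells, both close to the 0.423 with low-gene THY+ cells.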

How the data were processed

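Single cells were measured by full-length RNA sequencing on a Fluidigm C1 chip, per the labels' protocols. The authors deposited FPKM values per gene and cell, for 24388 genes and 92 ERCC spike-ins. The build is mm10 and SAMtools was used, per the submitters' processing notes. Which aligner, FPKM program and annotation made the table is not given in the sources used here. The depth of a cell is unknown, because no fragment counts come with FPKM.

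Cells were grouped by their sort label and by detected genes. The members, the limit of 1000 genes and the gene lists were chosen with earlier results of these data known. From the deposited values, detection at FPKM of at least 1, the share of endogenous FPKM of each gene and exact 95% intervals were computed (scipy 1.17.1, pandas 2.3.3 and numpy 2.4.6 in Python 3.11.15; figures with matplotlib 3.10.9), after the steps were tested on simulated data. No test was made, because each population is 1 sample and cells are not replicates. No cell was left out and doublets were not called. Lengths, positions and gene types came from GENCODE vM21, which matched 24029 genes by symbol.

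Genes were named by rule: Malat1, Neat1 and Meg3, 15 kept and 15 lost genes, 10 at each end of the share ratios, those detected more often in low-gene cells, housekeeping genes and up to 4 members of each of 33 lists, leaving out unnamed gene models and pseudogenes. The other genes named, among them Gm20594, 2900060B14Rik, Eif4a2, Tm9sf2, Chmp5 and further list members, were chosen after their values were seen. Alternatives were other gene limits, detection thresholds, ways to average, gene sets and index rows. 4 alternatives were added after seeing the data: leaving out cells under 1000 endogenous FPKM, shares multiplied by transcript length, leaving out snoRNA genes, and other thresholds for the genes detected more often in low-gene cells.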

Additional observations from a re-analysis of the deposited data

How the results depend on the processing

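Limits of 750 and 1500 genes, leaving out the cells between them, index rows S502 and S503 or the lowest 10% of low-gene cells gave 20 to 23 kept genes against 21. Srsf11 was no longer kept with the limit of 750, without the cells between or without those rows. At FPKM above 0 there were 34 kept genes and at 10 or more there were 5. By share of at least 0.001%, 280 genes were lost, and 5 endoplasmic reticulum genes were lost against 9. At FPKM above 0 and by share, 0 nuclear noncoding RNAs were lost against 1, and 1 splicing factor against 2. The share of lost genes in at most 10% of low-gene CSP cells was 89.3% and became 82.8% at FPKM above 0, 94.9% at 10 or more and 83.6% by share. The cause of these differences was not tested.

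Ratios of mean share of at least 2 and at most 0.5 in both populations were held by 43 and 499 common genes. Without the highest cell of each gene these counts were 23 and 878, with FPKM as deposited 1 (Gm20594) and 1300, and among 6786 genes detected in at least 10% of high-gene cells 220 (3.24%) and 3263 (48.1%). FPKM as deposited keeps the differences in spike-in level and in endogenous FPKM total. With it the median ratio over common genes was 0.0100 in THY+ and 0.0175 in 6C3+ cells. The direction was also reversed for the genes that follow. Neat1 then had 0.160 and 0.177, Malat1 0.238 and 0.294 and Meg3 0.308 and 0.469, in THY+ and 6C3+ cells. The smaller of both ratios was then 0.376 for Jun, 0.171 for Luc7l2, 0.200 for Srsf11 and Anp32b, 0.193 for Jund, 0.243 for Dlk1, 0.215 for Ddx17, 0.270 for Tsc2, 0.366 for Dnm1, 0.196 for Prpf4b and 0.179 for Rn45s. With the limit of 1500 genes, the cells between left out, summed FPKM and the highest cell left out, Neat1 passed 2 with 4.42, 3.51, 4.44 and 2.30 in THY+ and 5.90, 5.11, 4.69 and 4.11 in 6C3+ cells; in 6C3+ cells it also had 2.27 without rows S502 and S503, 2.41 without the 10 highest genes and 2.24 without snoRNA genes. Meg3 had 1.99 in THY+ cells without rows S502 and S503, and the smaller ratio of Prpf4b was 1.09 with the limit of 750.

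The low-gene minus high-gene difference in ERCC share of THY+ cells was 76.4 percentage points over all rows and 6.50, 14.7 and 16.4 in rows S502, S508 and S510. Of the alternative values, 75.5% of those for the main results and 88% of those for single genes kept their direction and side of the threshold or, where none applied, stayed within the spread or factor of 1.5 allowed. Kept and lost genes in rows S502 and S503 alone were not computed, since THY+ had fewer than 5 low-gene cells there, nor were Malat1 and Gm20594 without the 10 highest genes, to which they belong. No paired analysis was possible because the replicate numbers only name cells in accession order and no test was made.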
